A study of Mus musculus with 30 samples.

Results

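The 10 genes described here are C1qa, C1qb, C1qc, Csf1r, Cd68, Mrc1, C3, Cfb, C4b and Cfi. They were taken by gene name from a table of 46078 genes, and all 10 passed the filter on low counts that left 16261 genes for testing. The first 6 are treated as macrophage genes and the last 4 as complement genes that epithelial or stromal cells can make. The division came from what the genes are known for, not from these libraries.

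RNA came from the scraped epithelial layer of the colon of wild-type C57BL/6J mice of both sexes, which were 5 to 10 weeks old at the start. AOM/DSS mice had 1 intraperitoneal dose of 10 mg/kg azoxymethane (AOM), a carcinogen, and then 3 cycles of 2.5% dextran sulfate sodium (DSS), an irritant of the gut lining, in the drinking water. They were killed 9 or 15 weeks after AOM. Control mice had saline (vehicle) and were killed at 9 weeks, so they are the baseline for both times, and treatment and time cannot be told apart at 15 weeks. Each of the 6 groups held 5 mice with 1 library each. In bulk RNA of this kind, fewer cells of a type and less RNA per cell cannot be told apart.

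Macrophages of the gut wall engulf bacteria and dying cells, and they depend on Csf1r, the receptor for colony-stimulating factor 1. C1qa, C1qb and C1qc encode the 3 chains of C1q, which binds immune complexes and starts the classical complement pathway, and macrophages are a main source of it. C4b and C3 are cleaved in turn to tag targets, Cfb forms the C3-cleaving enzyme of the alternative pathway, and Cfi is the protease that inactivates the cleaved forms of C3 and C4. Cd68 is a lysosomal glycoprotein of phagocytes, and Mrc1 is the mannose receptor carried by many resident macrophages.

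The libraries held 9265804 to 30806392 gene counts (median 24697064). All 11 epithelial markers were detected, and their summed level was 13474 to 24585 CPM (gene counts scaled to a common library size), against 90.1 to 185 CPM for 14 resident macrophage markers. Connective tissue was present in unequal amounts. The summed level of 14 mesenchyme markers ran from 30.7 to 453 CPM in 29 libraries and reached 1552 CPM in male vehicle replicate 1. The summed smooth muscle markers were at 5969 CPM in that library and at most 229 CPM in the rest. Female AOM/DSS 9 weeks replicate 5 had the lowest summed mesenchyme markers of its group, at 66.1 CPM, and female vehicle replicate 5 was the shallowest library. Counts without these 3 libraries are given beside the results they change.

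The bases upstream of C1qb and C3 are shown because at 9 weeks with the sexes pooled these genes had the largest changes of the macrophage and of the complement genes that passed the test. Both are the 250 bases before the start of the RefSeq gene in GRCm38.p6, read 5′ to 3′ on the gene's own strand, and both genes lie on the minus strand. C1qb covers chr4:136886201-136886450 and C3 covers chr17:57228137-57228386. Capitals mark matches to 6 motifs searched on both strands.
C1qb: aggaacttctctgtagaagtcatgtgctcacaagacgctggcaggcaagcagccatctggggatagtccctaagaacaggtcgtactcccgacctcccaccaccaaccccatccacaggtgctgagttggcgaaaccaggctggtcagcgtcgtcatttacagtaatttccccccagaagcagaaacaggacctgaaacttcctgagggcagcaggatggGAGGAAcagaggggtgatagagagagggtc
C3: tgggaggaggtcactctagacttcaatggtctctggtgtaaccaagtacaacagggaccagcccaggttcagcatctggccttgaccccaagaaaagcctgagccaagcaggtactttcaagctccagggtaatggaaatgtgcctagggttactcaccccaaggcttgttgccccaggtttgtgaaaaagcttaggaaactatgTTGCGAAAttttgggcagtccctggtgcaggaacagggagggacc

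The C1qb window held 1 match to GAGGAA, the core letters bound by the myeloid factor PU.1, which begins 30 bases before the start. These letters were in 23.3% of 32851 promoter windows of the same length, and in the windows of C1qc, Cd68 and Mrc1 as well, but not in that of C3. The C3 window held 1 match to TTGCNNAA, a form of the site of C/EBP factors, 45 bases before the start. That form was in 9.56% of all windows and also in that of Cd68, but not in those of C1qb, C1qc or Mrc1. The C1qc window held a match to the NF-κB consensus, which was in 7.25% of all windows. No window of these 5 genes held TTCNNNGAA (STAT factors), the interferon response element or TATAAA, which were in 7.02%, 2.98% and 12.4% of all windows. The matches are letters only, and GAGGAA is common. C1qa, Csf1r, Cfb, C4b and Cfi are named only, without a window.

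On a scale that allows for gene length (TPM, transcript abundance scaled to the same total in each library), Cfb was the most abundant of the 10 genes in all 30 libraries. Its median was 24.4 TPM (4.97 to 48.3), between 2.65 and 33.4 times the next gene in the same library. Then came C1qb at a median of 3.16 TPM, C1qa at 2.80, C1qc at 1.95, Cd68 at 1.47 and C3 at 1.4 TPM. Csf1r followed at 0.727 TPM, C4b at 0.561, Mrc1 at 0.390 and Cfi at 0.0493 TPM. C1qb was above C1qa in 12 of 30 libraries, C1qc above Cd68 in 18 and Cd68 above C3 in 17, so these neighbours have no fixed order. C1qa was above C1qc in all 30 libraries.

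**Figure D1:**
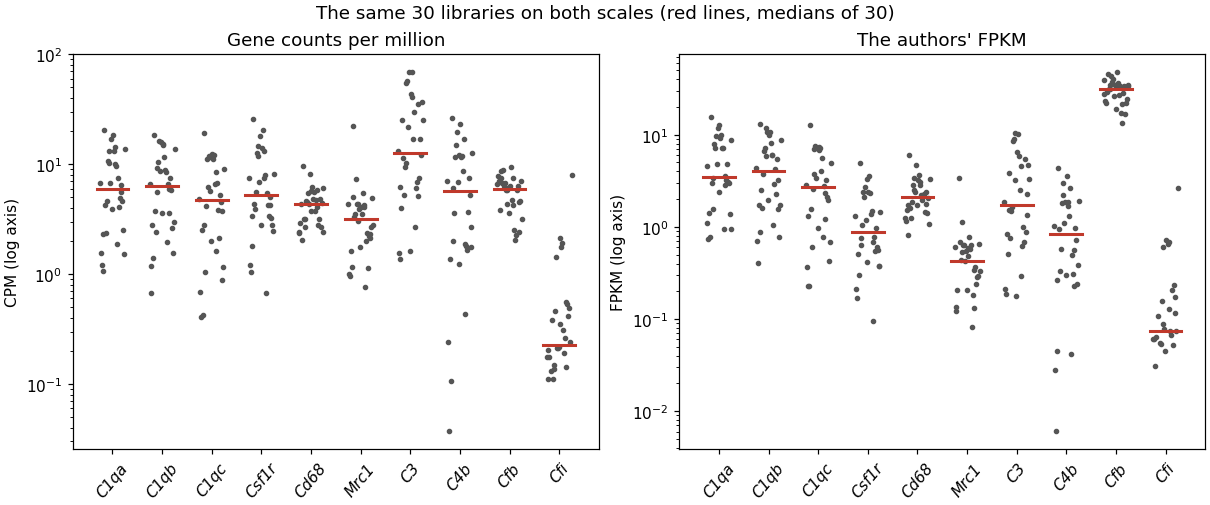
Level of each of the 10 genes in 30 libraries as CPM (left) and as the deposited FPKM, which allows for gene length (right), on log axes, with each point a library and red lines the medians. Cfb had a median of 5.96 CPM, within the range of the other genes, but of 31.3 FPKM, above all of them. Libraries at 0 are not drawn.

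The difference between the scales for Cfb goes with an overlap between genes. Cfb (ENSMUSG00000090231, chr17:34856374-34862518, minus strand, GRCm38) shares 2246 of its 2825 exonic bases, 79.5%, with the readthrough gene Gm20547 on the same strand. Gm20547 had 0 counts in every library, and Cfb had 39 to 267 counts. The ratio of CPM to FPKM times length was 0.0635 for Cfb, against 0.895 to 1.49 for the other 9 genes. The counts of Cfb are thus low for its FPKM, and its CPM is the less certain scale. Results from FPKM, which the authors computed apart from the counts, are given beside each Cfb comparison with the sexes pooled.

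At 9 weeks, C1qa, C1qb and C3 were higher in AOM/DSS than in vehicle mice with the sexes pooled. These 3 of the 10 genes passed all criteria (adjusted p below 0.05, log2 change beyond 0.4 and a mean of at least 1 FPKM in 1 of the compared groups), and 5.51% of all tested genes were called higher in this comparison. The median log2 change was 1.14 for the 6 macrophage genes and 1.92 for the 4 complement genes, against -0.024 for all 16261 genes.

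C1qa, the A chain, was at 6.76, 1.54, 1.22, 2.30 and 1.07 CPM in vehicle females and at 10.2, 13.3, 6.78, 16.9 and 3.92 CPM in AOM/DSS females at 9 weeks. In males the values were 20.4, 4.24, 2.36, 4.63 and 10.6 CPM with vehicle and 18.5, 13.1, 14.2, 10.1 and 9.58 CPM at 9 weeks. The male groups overlapped because 2 vehicle libraries were as high as the treated ones, and the female groups overlapped through 1 library on each side. The pooled log2 change was 1.29 ± 0.41 (SE, edgeR, n = 10 against 10, adjusted p = 0.0276), a 2.45-fold difference.

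C1qb rose in parallel, by 1.34 ± 0.42 on the log2 scale (adjusted p = 0.0270). It was at 6.62, 1.18, 0.666, 2.78 and 1.39 CPM in vehicle females and at 10.4, 16.1, 8.60, 15.8 and 3.60 CPM in AOM/DSS females at 9 weeks. C1qc had a log2 change of 1.21 ± 0.49 and did not pass (adjusted p = 0.0923). Its median was 2.65 CPM with vehicle (0.407 to 19.2) and 9.79 CPM at 9 weeks (1.99 to 12.3).

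The ratios of the C1q chains to each other varied between libraries. C1qb over C1qa was 0.913 in TPM at the median (0.518 to 1.84 over 30 libraries) and C1qc over C1qa was 0.663 (0.292 to 0.944). C1qa lies at chr4:136895917-136898803, C1qc at chr4:136889804-136893065 and C1qb at chr4:136880129-136886187, all on the minus strand of GRCm38. Of 20 fits that each left out 1 library, 6 lost the pooled call of C1qa and 3 that of C1qb. The C1qa call was lost without female vehicle replicate 2, 3 or 5, male vehicle replicate 2, female AOM/DSS 9 weeks replicate 4 or male AOM/DSS 9 weeks replicate 1, and the C1qb call without female vehicle replicate 2 or female AOM/DSS 9 weeks replicate 2 or 4. The highest adjusted p came without female AOM/DSS 9 weeks replicate 4, at 0.0628 for C1qa (log2 change 1.16) and 0.0537 for C1qb (1.25).

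Csf1r, the receptor that macrophages need to survive, had a log2 change of 1.06 ± 0.41 at 9 weeks and did not pass (adjusted p = 0.0775). Its median was 4.11 CPM with vehicle (1.04 to 25.9) and 12.6 CPM at 9 weeks (2.80 to 20.6). Without male vehicle replicate 1, at 25.9 CPM, the change was 1.39 with an adjusted p of 0.0161. Cd68 had a smaller log2 change of 0.53 ± 0.22 (adjusted p = 0.112), from a median of 3.02 CPM to one of 5.17 CPM. Without the 3 libraries that stand apart, 7 of the 10 genes were called higher at 9 weeks, adding C1qc, Csf1r, Cd68 and C4b, beside 5.97% of all genes in that fit. The 3 were chosen after their values were seen, and they include the vehicle libraries with the highest (20.4 CPM) and the lowest (1.07 CPM) C1qa and the treated library with the lowest at 9 weeks (3.92 CPM). Csf1r exons overlap 873 bases of Hmgxb3 on the other strand.

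Mrc1 did not share this pattern. It was under the FPKM minimum in every comparison with the sexes pooled, and so could not be called in them. Its median was 3.41 CPM with vehicle (0.962 to 22) and 4.05 CPM at 9 weeks (1.77 to 5.49), a log2 change of -0.019 ± 0.33 (adjusted p = 0.977). The direction turned without male vehicle replicate 1, at 22 CPM, to a log2 change of 0.37 with an adjusted p of 0.392. Mrc1 was the one macrophage gene whose change in males at 9 weeks was below 0, at -0.94 ± 0.45 (adjusted p = 0.184).

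C3, the central complement protein, had the largest change of the genes that passed. It was at 13.1, 1.54, 1.37, 6.23 and 3.95 CPM in vehicle females and at 54.7, 57.4, 21.6, 68.9 and 1.61 CPM in AOM/DSS females at 9 weeks. In males it was at 25.2, 11.3, 5.20, 9.36 and 10.2 CPM with vehicle and at 43.8, 69.0, 40.7, 17.1 and 29.6 CPM at 9 weeks. In females 4 of 5 treated libraries were above every vehicle library and replicate 5 was not, and in males replicate 4, at 17.1 CPM, was below the highest vehicle library. The pooled log2 change was 2.33 ± 0.52 (adjusted p = 0.00251), a 5.01-fold difference, and it passed with each of the 20 libraries left out in turn (log2 changes of 2.18 to 2.69).

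C4b (chr17:34728380-34743882, minus strand) had a log2 change of 1.54 ± 0.58 at 9 weeks, which did not pass (adjusted p = 0.0702). Vehicle females held 201, 6, 1, 31 and 1 counts, or 7.08, 0.243, 0.037, 1.37 and 0.107 CPM, so 3 of these 5 libraries held under 10 counts. AOM/DSS females at 9 weeks were at 14.8, 19.6, 6.81, 12 and 1.24 CPM. Reads of C4b and its near-identical copy C4a cannot be told apart with certainty, and C4a itself had a log2 change of 0.031 ± 0.22 (adjusted p = 0.947). Without female vehicle replicate 1 the C4b change was 2.54 with an adjusted p of 0.0023.

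Cfi was the rarest of the genes, with 0 to 9 counts in every vehicle library. At 9 weeks it was at 0.465, 1.42, 0.211, 0.213 and 0.215 CPM in females and at 2.13, 0.349, 1.77, 1.93 and 0.312 CPM in males, against 0 to 0.385 CPM with vehicle. The higher values were 1 female and 3 male libraries. In females the lowest treated library, at 6 counts and 0.211 CPM, was barely above the highest vehicle library, at 5 counts and 0.203 CPM. The log2 change in females was 1.76 ± 0.99 (adjusted p = 0.385). The pooled log2 change of 2.29 ± 0.68 had an adjusted p of 0.0199, but Cfi was under the FPKM minimum and so was not called. Cfi lies at chr3:129835884-129875332 on the plus strand.

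Cfb did not differ detectably at 9 weeks on either scale. Its log2 change was -0.28 ± 0.21 by counts (adjusted p = 0.408) and 0.025 by FPKM (limma on log2(FPKM + 1), adjusted p = 0.949). The medians were 31.3 FPKM with vehicle (22.1 to 45.3) and 34.0 FPKM at 9 weeks (18.8 to 48.1).

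**Figure D2:**
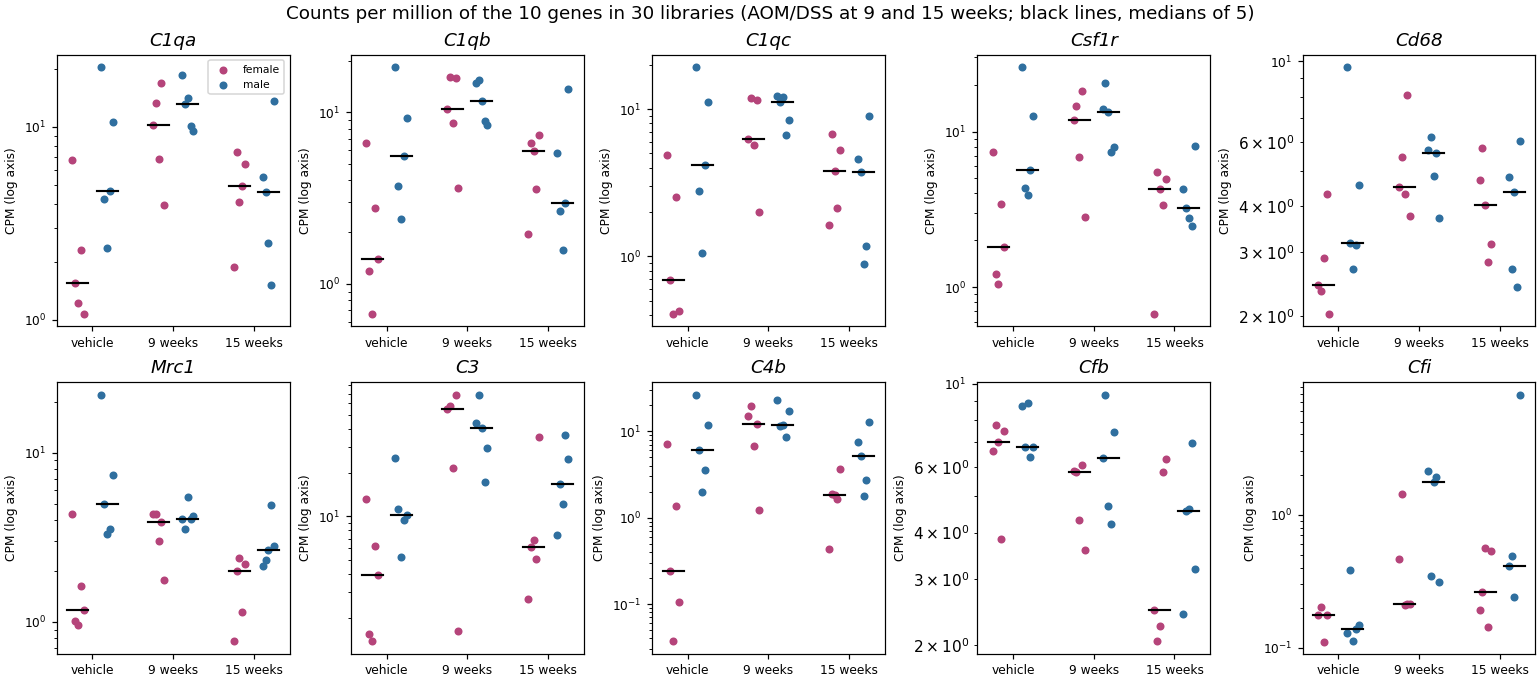
CPM of the 10 genes in each library on log axes, by treatment (AOM/DSS at 9 and 15 weeks), with females in pink, males in blue and black lines at the medians of 5. C3 reached 69.0 CPM at 9 weeks and at most 25.2 CPM with vehicle, while Cfb stayed between 2.05 and 9.34 CPM in all 30 libraries. The 2 libraries with 0 counts of Cfi are not drawn.

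Within sexes, C1qb and C3 were called higher in females at 9 weeks, 2 of 10 genes beside 2.42% of all genes. C1qb changed by 2.08 ± 0.61 on the log2 scale (adjusted p = 0.0477) and C3 by 2.95 ± 0.76 (adjusted p = 0.0222). Of 10 fits that each left out 1 library, 2 kept the C1qb call, those without female vehicle replicate 1 or female AOM/DSS 9 weeks replicate 5, and 4 kept that of C3, those without female vehicle replicate 1 or female AOM/DSS 9 weeks replicate 2, 3 or 5. Adjusted p reached 0.131 for C1qb and 0.0725 for C3. In the same females all 8 smooth muscle, 14 mesenchyme and 7 endothelial markers had a log2 change above 0, with medians of 2.32, 1.31 and 1.20 and none called (edgeR). Their part in these calls was not tested. In fits with the resident macrophage or mesenchyme score as covariate, none of the 10 was called in females. Such fits cannot decide it, since C1qb itself varied with these scores between libraries (r = 0.922 and 0.865). In males none of the 10 was called by edgeR or by DESeq2, beside 7.31% of all genes called in either direction, and 3 had an unadjusted p under 0.05. These were C3 at 1.70 ± 0.72 (adjusted p = 0.129), Cfi at 2.82 ± 0.94 (adjusted p = 0.0527) and Mrc1. A fit of edgeR to the compared libraries alone called C3 in males and none in females.

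The sexes were not shown to differ in their response. The interaction of sex with treatment at 9 weeks called 0 of the 10 genes and 0% of all genes, and 1 of the 10 had an unadjusted p under 0.05. That gene was Mrc1, with a male minus female difference of -1.85 ± 0.64 on the log2 scale (adjusted p = 0.600). At 15 weeks the interaction again called 0 genes, or 0% of all, and 2 of the 10 had an unadjusted p under 0.05, C1qc at -2.07 ± 0.99 (adjusted p = 0.640) and Mrc1 at -1.35 ± 0.65 (adjusted p = 0.645). DESeq2 also called none of the 10 in either interaction.

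**Figure D3:**
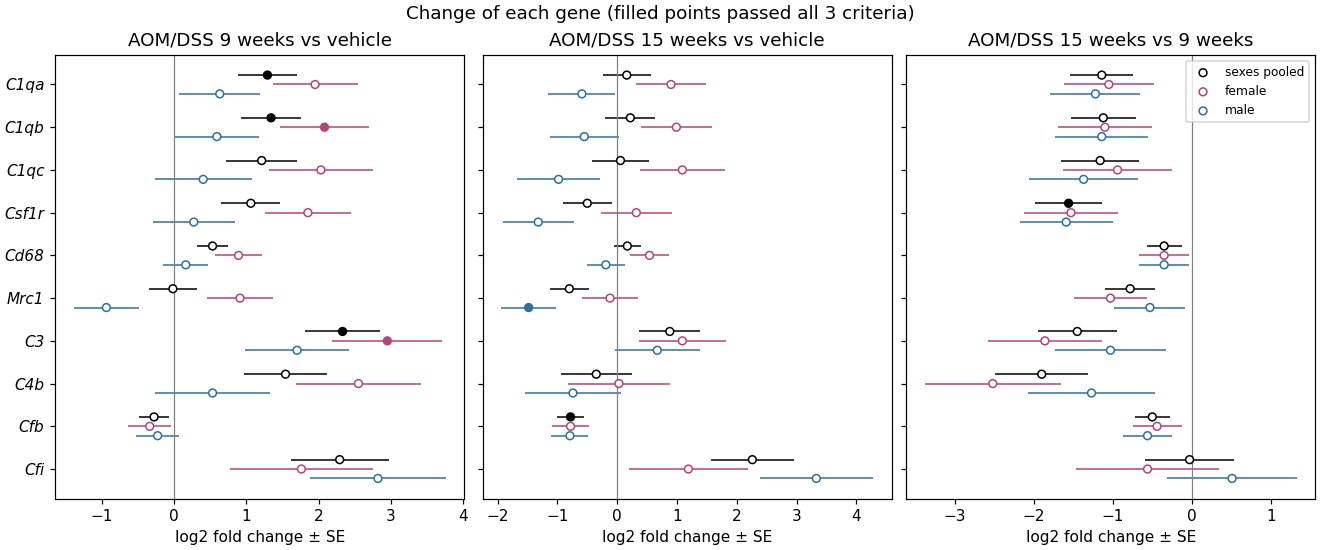
Log2 fold change with its SE for the 10 genes in 3 comparisons, with the sexes pooled (black, n = 10 against 10), in females (pink) and in males (blue, each n = 5 against 5). Filled points passed all criteria. At 9 weeks the 3 filled black points were C1qa (1.29), C1qb (1.34) and C3 (2.33), and at 15 weeks the 1 filled black point was Cfb (-0.78).

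At 15 weeks Cfb was lower than in vehicle mice by counts, though not on every scale, and no macrophage gene passed the test with the sexes pooled. Cfb was the 1 gene of 10 called, and 3.89% of all genes were called lower. The median change was 0.11 for the macrophage genes and 0.26 for the complement genes, beside -0.025 for all genes.

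Cfb was at 39.6, 28.0, 23.4, 22.1 and 29.4 FPKM in vehicle females and at 17.4, 13.3, 21.7, 28.3 and 33.8 FPKM in AOM/DSS females at 15 weeks. In males it was at 45.3, 31.3, 35.1, 31.4 and 43.6 FPKM with vehicle and at 16.8, 22.1, 24.5, 33.5 and 34.7 FPKM at 15 weeks. The groups overlapped in both sexes. By counts the pooled log2 change was -0.78 ± 0.22 (adjusted p = 0.0163), and it passed with each of 20 libraries left out in turn. By FPKM the change was -0.43 and did not pass (adjusted p = 0.0600). On log2(TPM + 1) and log2(TPM + 0.1) it was -0.57 and -0.60 and did not pass either (limma, adjusted p = 0.237 and 0.222), while with TPM rescaled without mitochondrial genes it was -0.44 and passed (adjusted p = 0.0307).

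C1qa had a median of 3.30 CPM with vehicle and 4.77 CPM at 15 weeks (1.52 to 13.7), a log2 change of 0.16 ± 0.40 (adjusted p = 0.816). C1qb had a log2 change of 0.22 ± 0.42 (adjusted p = 0.741) and C1qc one of 0.055 ± 0.48 (adjusted p = 0.949). That of Csf1r was -0.50 ± 0.41 (adjusted p = 0.406), that of Cd68 0.17 ± 0.23 (adjusted p = 0.609) and that of Mrc1 -0.80 ± 0.33 (adjusted p = 0.0831). C3 was between the other groups, with a median of 9.82 CPM (2.68 to 36.4) and a log2 change of 0.88 ± 0.51 (adjusted p = 0.221). C4b was at a median of 2.29 CPM, with a change of -0.35 ± 0.59 (adjusted p = 0.700).

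Cfi rested on 1 mouse at 15 weeks. Male replicate 5 held 232 counts, or 7.95 CPM, and the other males held 7, 12, 6 and 0 counts, or 0.415, 0.490, 0.242 and 0 CPM. The pooled log2 change of 2.26 ± 0.69 (adjusted p = 0.0256, under the FPKM minimum) became 0.96 without that library (adjusted p = 0.224).

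Mrc1 was called lower in males at 15 weeks, 1 of 10 genes beside 4.55% of all genes called lower. It met the FPKM minimum only through the vehicle males, at 3.37, 0.687, 0.435, 0.531 and 1.12 FPKM. Vehicle males were at 22, 4.97, 3.29, 3.52 and 7.36 CPM and AOM/DSS males at 15 weeks at 2.14, 2.33, 2.66, 4.89 and 2.81 CPM. The log2 change of -1.48 ± 0.46 (adjusted p = 0.0313) rested on male vehicle replicate 1, at 22 CPM. Without it the change was -0.70 (adjusted p = 0.283), and the call was lost in 5 of the 10 fits without 1 library, the other 4 being those without AOM/DSS 15 weeks replicate 1, 2, 3 or 5. In the same males, 10 of 14 mesenchyme markers were called lower, with a median log2 change of -2.28. Male vehicle replicate 1, at a summed 1552 CPM of these markers, is included. The median summed level was 238 CPM in vehicle males and 87.1 CPM in males at 15 weeks. The part of these markers in the Mrc1 result was not tested. With the mesenchyme score as covariate the Mrc1 change was 0.052. That fit cannot decide it, since Mrc1 itself varied with the score between libraries (r = 0.635). In females none of the 10 was called at 15 weeks, by edgeR or DESeq2, beside 0.0984% of all genes, and 1 had an unadjusted p under 0.05.

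Between 9 and 15 weeks Csf1r was the 1 gene called lower, beside 1.91% of all genes. The pooled change of all 10 genes was below 0, but that of Cfi was -0.028 ± 0.56 (adjusted p = 0.983) and ran from -1.33 to 0.40 without 1 library. Directions were not counted over all genes. Csf1r was at 11.8, 14.6, 6.81, 18.2 and 2.80 CPM in females at 9 weeks and at 0.671, 5.51, 4.25, 3.39 and 4.97 CPM at 15 weeks. Males were at 14, 20.6, 13.3, 7.43 and 7.99 CPM and then at 4.27, 3.22, 2.78, 2.48 and 8.12 CPM. In each sex only 1 library broke the separation of the groups. The log2 change was -1.56 ± 0.42 (adjusted p = 0.0349), a 2.95-fold difference, but the call was lost in 11 of 20 fits that each left out 1 library. These were the fits without female AOM/DSS 9 weeks replicate 1, 2 or 4, male AOM/DSS 9 weeks replicate 1, 2 or 3, female AOM/DSS 15 weeks replicate 1 or 4, or male AOM/DSS 15 weeks replicate 1, 3 or 4. Adjusted p ran from 0.00922 to 0.0770, the highest without female AOM/DSS 9 weeks replicate 4. The vehicle libraries have no part in the means compared here but share in the estimate of the spread.

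C4b had a log2 change of -1.90 ± 0.59 between the times (adjusted p = 0.0573), C3 one of -1.45 ± 0.50 (adjusted p = 0.0862), C1qa one of -1.14 ± 0.40 (adjusted p = 0.0903) and C1qb one of -1.12 ± 0.41 (adjusted p = 0.103). The change was -1.16 ± 0.49 for C1qc (adjusted p = 0.148), -0.78 ± 0.32 for Mrc1 (adjusted p = 0.141) and -0.35 ± 0.22 for Cd68 (adjusted p = 0.337). Cfb changed by -0.50 ± 0.22 by counts (adjusted p = 0.162) and by -0.46 by FPKM (limma, adjusted p = 0.0636). Without the 3 libraries that stand apart, C4b, C3, C1qa, C1qb and C1qc were called lower as well as Csf1r, beside 4.58% of all genes in that fit. Of the 3, chosen after their values were seen, only female AOM/DSS 9 weeks replicate 5 enters the means compared here. It was the lowest 9-week library for each of these genes, so leaving it out makes the fall larger, and these added calls are not separate support. Within females or males alone, 0 of the 10 genes and 0% of all genes were called by edgeR, with 4 and 2 of the 10 at an unadjusted p under 0.05, and DESeq2 called none of the 10. The summed mesenchyme markers were also lower, with medians of 286 and 277 CPM in females and males at 9 weeks and 85.7 and 87.1 CPM at 15 weeks, and 3 of 14 were called lower. The part of these markers in the changes between the times was not tested. With the mesenchyme or the macrophage score as covariate, no gene of the 10 and 0% of all genes were called between the times. Such fits cannot decide it, since the C1q genes, Csf1r, C3 and C4b themselves varied with both scores between libraries (r = 0.870 and 0.809 for Csf1r with the macrophage and mesenchyme scores).

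Among vehicle mice Mrc1 was higher in males, 1 of 10 genes beside 0.141% of all genes called higher in males. Here too Mrc1 met the FPKM minimum only through the vehicle males. Vehicle females were at 4.33, 1.01, 0.962, 1.63 and 1.17 CPM, and only female replicate 1 reached the male range. The log2 difference was 2.15 ± 0.47 (adjusted p = 0.0473), and without male vehicle replicate 1 it was 1.37 (adjusted p = 0.421). The call was also lost without male vehicle replicate 5 or female vehicle replicate 2, 3, 4 or 5. The other macrophage genes had differences of 0.72 to 2.06 that did not pass, and all 10 genes had a value above 0. All 14 mesenchyme markers were also above 0 in this comparison, with a median of 2.47, none of them called, and 7 of 8 smooth muscle markers were called higher in males, with a median of 6.2. These values include male vehicle replicate 1, at a summed 5969 CPM of smooth muscle markers. The median summed level was 86.9 CPM in vehicle males and 8.26 CPM in vehicle females. The part of these markers in the Mrc1 difference was not tested. Mrc1 was not called in the fits with a score as covariate, which cannot decide it because Mrc1 itself varied with both scores. At 9 weeks 0 of the 10 differed between the sexes (edgeR, 0 at an unadjusted p under 0.05) beside 0.0492% of all genes, and at 15 weeks 0 (1 at an unadjusted p under 0.05) beside 0.184%. DESeq2 called none of the 10 at either time.

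The ratio of Mrc1 to C1qa within a library separated treated from vehicle mice at 9 weeks. This ratio was chosen after its values were seen. In CPM it was 0.641, 0.658, 0.712, 0.788 and 1.10 in vehicle females and 0.229, 0.326, 0.425, 0.446 and 0.452 in AOM/DSS females. Males had 0.691, 0.761, 1.08, 1.17 and 1.4 with vehicle and 0.219, 0.269, 0.386, 0.402 and 0.442 at 9 weeks. No treated library reached a vehicle library of its sex in CPM. In TPM this held for males, while in females the vehicle library with a ratio of 0, in which Mrc1 was listed at 0, lay below the treated range of 0.0454 to 0.0889. The mean log2 ratio was lower by -1.07 in females and by -1.57 in males, each with an exact permutation p (two-sided) of 0.00794, the smallest that 5 against 5 allows, and an adjusted p of 0.0635 over 24 such tests. At 15 weeks females were again apart (-1.13, exact p = 0.00794, adjusted p = 0.0635), while males spread from 0.206 to 3.23 (exact p = 0.468).

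**Figure D4:**
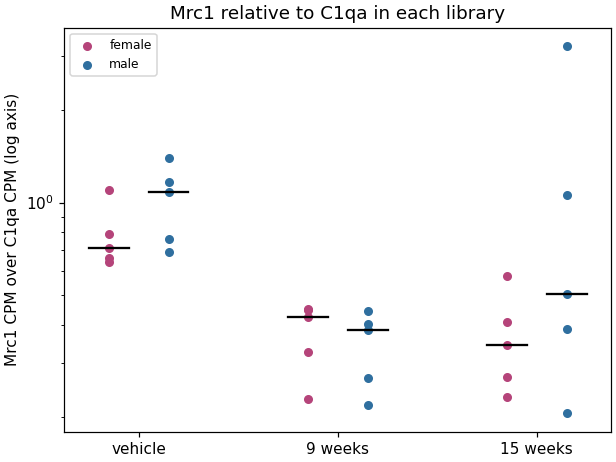
Mrc1 CPM divided by C1qa CPM in each library on a log axis, by treatment, with females in pink, males in blue and black lines at the medians of 5. The medians were 0.712 and 1.08 in vehicle females and males and 0.425 and 0.386 at 9 weeks, and 1 male library at 15 weeks stood at 3.23.

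Ratios of Csf1r, Cd68 and C3 to C1qa had adjusted p of 0.190 to 0.897 in the same family of tests. C3 over C1qa ran from 0.411 to 24 in CPM, a wider range than Csf1r over C1qa, at 0.359 to 1.70.

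Across libraries, the macrophage genes varied together, Cfi passed in few pairs, and the values of Cfb depended on the scale. Correlations used log2 CPM centred on the 6 group means, so that they describe differences between mice of the same group, with permutation of libraries within groups and adjustment over 45 pairs. Of 15 pairs of macrophage genes 14 passed (adjusted p below 0.05), with a median r of 0.726. C1qa and C1qc had the highest value (Pearson's r = 0.940, Spearman's rho = 0.937, permutation p = 1e-05 for both, the smallest possible, adjusted p = 3.75e-05 and 4.5e-05), and r was 0.926 without the 2 libraries farthest from the median. The exception was Cd68 with Mrc1 (r = 0.381, rho = 0.263, permutation p = 0.111 and 0.204, adjusted p = 0.138 and 0.263, r = 0.120 without the 2 libraries).

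C4b went with the macrophage genes other than Cd68, with which it did not pass (r = 0.396, permutation p = 0.0485, adjusted p = 0.0682). It also went with the mesenchyme score (r = 0.876) as closely as with the resident macrophage score (r = 0.870). Its r was 0.903 with C1qc (rho = 0.895, permutation p = 1e-05 for both, adjusted p = 3.75e-05 and 4.5e-05, 0.895 without the 2 farthest libraries). C3 stood between, with r = 0.757 for Csf1r (rho = 0.747, permutation p = 1e-05 and 3e-05, adjusted p = 3.75e-05 and 0.000112, 0.700 without the 2 libraries). Within treatments that value was 0.893 with vehicle and 0.949 at 9 weeks but 0.463 at 15 weeks, with 10 libraries each.

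Cfb passed in 1 of its 9 pairs, with C3 (r = 0.427, rho = 0.341, permutation p = 0.0212 and 0.0958, adjusted p = 0.0330 and 0.131), and that r was 0.279 without the 2 farthest libraries. On the log2(nuclear TPM + 1) scale, TPM rescaled without mitochondrial genes, it passed in 4 of its 9 pairs, with C3 (r = 0.776, adjusted p = 6.43e-05), Csf1r (r = 0.572, adjusted p = 0.00356), Mrc1 (r = 0.491, adjusted p = 0.00436) and C1qb (r = 0.464, adjusted p = 0.0304). With C1qa r was 0.381 (adjusted p = 0.0718). On log2(TPM + 1) its r with the macrophage genes was 0.542 (Mrc1) to 0.745 (C1qb). Cfi, with few counts, passed in 3 of its 8 other pairs.

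**Figure D5:**
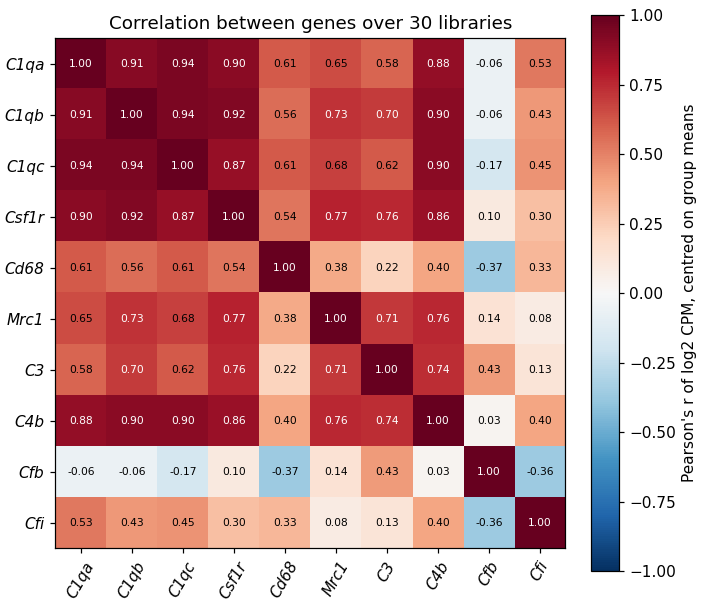
Pearson's r between the 10 genes over 30 libraries, from log2 CPM centred on the group means (red positive, blue negative). The C1q genes, Csf1r and C4b form a block of values from 0.863 to 0.940, and Cfb has values from -0.366 to 0.427.

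Correlations with marker scores were computed over the same libraries, 30 relations in all. The score of resident macrophage markers, none of them among the 10 genes, had r = 0.922 with C1qb (rho = 0.919, permutation p = 1e-05 for both, adjusted p = 3e-05, 0.916 without the 2 farthest libraries). The mesenchyme score had r = 0.910 with C1qa (rho = 0.867, permutation p = 1e-05 for both, adjusted p = 3e-05, 0.882 without the 2 libraries). The scores themselves went together (r = 0.860), so macrophage and mesenchyme content of the scrape cannot be told apart as partners of these genes. C3 had a lower value with the macrophage score (r = 0.685, rho = 0.630, permutation p = 0.00048 and 0.00058, adjusted p = 0.00131 and 0.00158, 0.630 without the 2 libraries), and within 15 weeks it was 0.0919. With the epithelium score, r was -0.554 for Mrc1 (permutation p = 0.00909, adjusted p = 0.017) and -0.434 for C3 (permutation p = 0.0145, adjusted p = 0.0242). The rho of C3 with that score was -0.407 (permutation p = 0.0329, adjusted p = 0.0548). Cfb (r = -0.273) and Cfi (r = 0.309) did not pass (adjusted p = 0.249 for both), and neither did C4b, the C1q genes, Csf1r or Cd68.

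The genes most like each one, by group-centred r over 30 libraries among 10630 genes with a mean of at least 5 CPM, are given as a description. For the mean of the C1q chains they were Apoe (0.948), Serping1 (0.943), Bgn (0.937), Col1a1 (0.936) and Col4a1 (0.931). For Csf1r they were Mpeg1 (0.948), Pla2g7 (0.939), Lyz2 (0.913), Apoe (0.910) and Serping1 (0.896). Apoe, Mpeg1 and Lyz2 are genes of macrophages, and Col1a1 and Bgn are matrix genes of stromal cells.

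C4b was closest to Col5a2 (0.952), Serping1 (0.949), Dcn (0.944), C1s1 (0.933) and Serpina3n (0.923), of which Dcn and Col5a2 are matrix genes. C3 was closest to Slc28a3 (0.912), C1ra (0.898), Sval1 (0.891), Pla2g2f (0.883) and Ctse (0.881). For Cfb, on the less certain CPM scale, the values were lower, with Tnfrsf14 (0.854), Ankrd52 (0.781), Zbtb34 (0.770), Akr1c14 (0.762) and Pik3c2b (0.753). Cfi had Lyz1 (0.769), Tead2 (0.767), Pnliprp1 (0.755), Tcf7 (0.738) and Nkd1 (0.731). Its counts were few, and within males at 15 weeks they ran from 0 in replicate 4 to 232 in replicate 5. The values for Cfi may thus rest largely on these mice, which was not tested.

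Other complement genes were counted from lists. Of 8 tested genes of the classical pathway, 3 were called higher at 9 weeks, C1qa, C1qb and C2. C2, the protease partner of C4b, changed by 1.60 ± 0.27 (adjusted p = 0.000159) at 9 weeks and by 0.94 ± 0.27 (adjusted p = 0.0203) at 15 weeks. C2 shares 42.8% of its exonic bases with Gm20547, and its ratio of CPM to FPKM times length was 0.225. Its counts, from which these changes come, are thus low for its FPKM, as for Cfb, and the changes are less certain. Between the times C1ra, at -1.5 ± 0.41 (adjusted p = 0.0359), and C1s1, at -2.06 ± 0.54 (adjusted p = 0.0317), were called lower, and both encode proteases that bind C1q. Of the 4 genes of the alternative pathway C3 was called higher and Cfd, the factor D protease, lower at 9 weeks, by -2.65 ± 0.86 (adjusted p = 0.0323). Of the lectin and terminal pathways, 1 of 8 and 3 of 7 genes were tested and none was called in a pooled comparison.

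Of 9 tested regulators 2 were called higher at 9 weeks. Cd55, which speeds the decay of C3-cleaving enzymes, changed by 0.55 ± 0.17 (adjusted p = 0.0242) and stayed higher at 15 weeks, by 0.53 ± 0.17 (adjusted p = 0.0312). Clu changed by 1.46 ± 0.48 at 9 weeks (adjusted p = 0.0357).

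Among 6 tested complement receptors, 3 integrin chains were called higher at 9 weeks and lower between 9 and 15 weeks. Itgb2 changed by 1.87 ± 0.30 (adjusted p = 6.42e-05) and then by -1.28 ± 0.29 (adjusted p = 0.0172). Itgax changed by 1.63 ± 0.33 at 9 weeks (adjusted p = 0.00079) and Itgam by 0.83 ± 0.27 (adjusted p = 0.0366). The anaphylatoxin receptors were low. C5ar1 had a log2 change of 2.06 ± 0.64 at 9 weeks (adjusted p = 0.0258), under the FPKM minimum, and C3ar1 one of 1.25 ± 0.53 (adjusted p = 0.112).

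Of the 6 genes for Csf1r ligands and lineage factors, Irf8 was called higher, by 0.65 ± 0.11 at 9 weeks (adjusted p = 9.98e-05) and by 0.41 ± 0.11 at 15 weeks (adjusted p = 0.0120). The ligand Csf1 had a log2 change of 1.11 ± 0.47 at 9 weeks (adjusted p = 0.113) and one of -1.49 ± 0.48 between the times (adjusted p = 0.0642). The other ligand, Il34, had no called change, with an adjusted p of 1 at 9 weeks and a log2 change of -0.98 ± 0.38 at 15 weeks (adjusted p = 0.0700).

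Markers of other cells moved at the same time. Of 9 tested resident macrophage markers, Aif1, at 1.63 ± 0.42 (adjusted p = 0.00682), and Cd14, at 1.41 ± 0.22 (adjusted p = 4.16e-05), were called higher at 9 weeks. At 15 weeks Cd14 was higher, by 0.68 ± 0.21 (adjusted p = 0.0303), and Lyve1, also a gene of lymphatic vessels, lower, by -1.36 ± 0.34 (adjusted p = 0.00863). Of 8 neutrophil markers 4 were called higher at 9 weeks, among them S100a8 at 8.03 ± 1.21 (adjusted p = 5.95e-05), S100a9 at 7.07 ± 1.12 (adjusted p = 6.38e-05) and Retnlg at 5.08 ± 0.90 (adjusted p = 0.000216). Neutrophils also carry Itgam, Itgb2 and C5ar1. Of the monocyte list 1 of 7 tested genes was called higher, Plac8 (0.87 ± 0.10, adjusted p = 8.14e-07).

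None of 6 dendritic cell, 7 B cell, 14 mesenchyme, 8 smooth muscle or 7 endothelial markers was called at 9 weeks with the sexes pooled (edgeR), and 2 of 7 T cell markers, Cd3g and Trac, were called higher. In males alone, 8 of 8 smooth muscle markers were called lower at 9 weeks, with a median log2 change of -4.90, while in females all 8 were above 0. That male change includes male vehicle replicate 1, at a summed 5969 CPM. The median summed level was 86.9 CPM in vehicle males and 45.4 CPM in males at 9 weeks. Of 11 epithelial markers Krt20 was called higher in the pooled comparison. At 15 weeks 6 of 14 mesenchyme and 7 of 8 smooth muscle markers were called lower than in vehicle mice, again with male vehicle replicate 1 included. The part of these markers in the results for the 10 genes was not tested. The fits with a score as covariate cannot decide it, since the C1q genes, Csf1r, C3 and C4b varied with both scores. With the mesenchyme score as covariate, 6 of the 10 genes were called higher at 9 weeks, C1qa, C1qb, C1qc, Csf1r, C3 and C4b, beside 5.71% of all genes in that fit. With the resident macrophage score as covariate, none was, beside 3.65% of all genes.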

How the data were processed

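The authors trimmed reads of a stranded poly-A library with Trim Galore, aligned them to mm10 with STAR and counted genes with featureCounts (deposited counts per gene), and ran StringTie apart from that for the deposited FPKM and TPM values, per the labels and the study's methods. mt-Nd4l held 39.2 to 58.1% of the TPM total, so TPM between libraries moves with it. From these files, CPM were computed with TMM scaling (factors 0.832 to 1.10), and 16261 genes were tested with edgeR 4.0.16 (quasi-likelihood, 6 group means over 30 libraries, Benjamini-Hochberg). A gene was called at adjusted p below 0.05, log2 fold change beyond 0.4 and mean FPKM of at least 1 in 1 of the compared groups. On simulated counts of 16261 genes for AOM/DSS at 9 weeks against vehicle, 66 of 100 genes changed 1.5-fold and 99 of 100 changed 3-fold were recovered. This was without the FPKM minimum and without differences in tissue content, and the changed genes all had a mean above 2 CPM. log2 CPM used a prior count of 2. The 14 comparisons were repeated with DESeq2 1.42.0, limma 3.58.1 on log2(TPM + 1), log2(TPM + 0.1), log2(FPKM + 1) and log2(nuclear TPM + 1), other filters, covariates and left-out libraries. Every one of the 10 genes is named in each comparison with the sexes pooled, and only some are named in the others. From the pathway and marker lists the genes named are up to 3 with the largest changes among those called, and C3ar1, C5ar1, Csf1, Il34, C2 and C4a, and another gene of that rule is not reported here. Genes and lists were chosen with earlier results of these data known. The 5 libraries of a group came from separate mice, and no pair within a group agreed within counting noise (60 pairs). Repeated gene lines (11 to 20 in each StringTie file) were merged, and promoter windows came from RefSeq (GRCm38.p6), with 5 of 10 genes matched.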

Additional observations from a re-analysis of the deposited data

Results flagged for a closer look

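In 3 of 60 groups of 5 libraries, 1 library lay apart from the other 4 by more than Dixon's 95% limit on log2 CPM. Chance gives such a library in about 1 in 20 groups. Csf1r was at -0.41 in female AOM/DSS 15 weeks replicate 1, against 1.79 to 2.48 in the other 4. Cfb was at 1.97 in female vehicle replicate 4, against 2.74 to 2.97, but by FPKM this library, at 22.1, was close to the next, at 23.4, with the others up to 39.6. Cfi was at -1.10 in male vehicle replicate 2, against -2.37 to -2.12, which is a difference of 9 counts against 3 or 4.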

How the results depend on the processing

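Male vehicle replicate 1, female vehicle replicates 1 and 5 and female AOM/DSS 9 weeks replicates 4 and 5 moved calls most, and the cause was not tested. Counts were low for Cfi, at 0 to 9 in every vehicle library, and for C4b, at under 10 in 3 of 5 vehicle females. The numbers of called genes below stand without the share of all genes called in the same fit, apart from the shares given earlier. They describe how calls moved with the processing, and whether these genes moved more than others was not tested. Same-numbered libraries of different groups did not vary together (median r -0.0262, with 12 of 75 above 0.1), so the numbers pair no mice. With a replicate block 5 of the 10 genes were called at 9 weeks with the sexes pooled, 4 at 9 weeks in females, 2 between the times and 0 for males at 15 weeks and for male against female vehicle mice, and the other counts stayed the same.
At 9 weeks with the sexes pooled, where 3 genes were called, 6 were called with the mesenchyme score as covariate, 0 with the macrophage score, 5 by DESeq2, 6 and 7 by limma on log2(TPM + 1) and log2(TPM + 0.1), 5 on FPKM, 5 on nuclear TPM, 7 without the 3 libraries that stand apart, and 1 to 7 without 1 library. In females the count of 2 became 1 with no filter on low counts, 0 with either score, 6 by DESeq2, 5 on log2(TPM + 0.1), 4 on nuclear TPM, 0 with the compared libraries alone, 4 without the 3 libraries and 0 to 6 without 1. In males the count of 0 became 5 with the mesenchyme score, 1 with the macrophage score (Mrc1) and 1 with the compared libraries alone (C3).
At 15 weeks with the sexes pooled, the count of 1 became 2 with no FPKM minimum, 5 with the mesenchyme and 2 with the macrophage score, and 0 on log2(TPM + 1), log2(TPM + 0.1) and FPKM. In males it became 2 with no FPKM minimum, 3 with the mesenchyme and 0 with the macrophage score, 0 by limma on TPM with either pseudocount and on FPKM, 0 with the compared libraries alone, 0 without the 3 libraries and 0 to 2 without 1. Between the times the count of 1 became 0 with either score, 3 by DESeq2, 8 by limma on TPM with either pseudocount, 6 on FPKM, 4 on nuclear TPM, 2 with the compared libraries alone, 6 without the 3 libraries and 0 to 5 without 1. Between the times it rose from 0 to 1 in females without the 3 libraries and to 7 and 4 in males on log2(TPM + 1) and log2(TPM + 0.1). For male against female vehicle mice the count of 1 became 4 by DESeq2, 0 with no filter on low counts, with either score, by limma on every scale, with the compared libraries alone and without the 3 libraries, and 0 to 6 without 1.
No called gene of the 10 changed direction except Mrc1 in males at 15 weeks, at 0.052 with the mesenchyme score. The log2 changes that turned were these. At 9 weeks pooled, Csf1r was at -0.029 with the macrophage score. Mrc1 was at 0.17 with the replicate block, 0.041 on nuclear TPM, 0.000 with the compared libraries alone, 0.40 without the 3 libraries and -0.12 to 0.37 without 1. Cfb was at 0.30, 0.31 and 0.025 on log2(TPM + 1), log2(TPM + 0.1) and FPKM. In females Mrc1 was at -0.13 with the macrophage score, and Cfb at 0.39, 0.41, 0.12 and 0.026 on both TPM scales, FPKM and nuclear TPM. In males Csf1r was at -0.13 with the macrophage score and Cfb at 0.20 on both TPM scales.
At 15 weeks pooled, C1qa was at -0.10 and -0.063 on the TPM scales and -0.16 to 0.54 without 1 library, C1qb at -0.046 on log2(TPM + 1) and -0.14 to 0.61, and C1qc at -0.12 on log2(TPM + 1), -0.013 on FPKM and -0.22 to 0.46. With the mesenchyme score Csf1r was at 0.57, Mrc1 at 0.017 and C4b at 1.51. Cd68 was at -0.038 and -0.002 on the TPM scales. C4b was at 0.19 with the replicate block, 0.34 with the macrophage score and -0.58 to 0.64 without 1 library. In females Csf1r was at -0.24 and C4b at -0.14 with the macrophage score, Mrc1 at 0.13 with the replicate block, 0.076 on nuclear TPM and -0.29 to 0.50 without 1 library, C3 at -0.025 to 1.81 and C4b at -0.36 to 2.02 without 1, and C4b at -0.22 without the 3 libraries. In males, with the mesenchyme score, C1qa was at 1.32, C1qb at 1.26, C1qc at 1.37, Csf1r at 0.66, Cd68 at 0.46 and C4b at 2.21. With the macrophage score C1qa was at 0.43, C1qb at 0.39, C1qc at 0.38, Cd68 at 0.26 and C4b at 0.82. Without 1 library C1qa was at -1.23 to 0.037, C1qb at -1.26 to 0.041, Cd68 at -0.36 to 0.26 and C4b at -1.19 to 0.035, and without the 3 libraries they were at 0.038, 0.042, 0.26 and 0.036.
Between the times, with the mesenchyme score, C1qa was at 0.094, C1qb at 0.054, C1qc at 0.32, Cd68 at 0.059, Mrc1 at 0.063, C4b at 0.054 and Cfi at 1.02. With the macrophage score C1qa was at 0.087, C1qb at 0.17, C1qc at 0.41, Cd68 at 0.15, Mrc1 at 0.11, C3 at 0.26, C4b at 0.065 and Cfi at 0.90. Cfi was at -1.33 to 0.40 without 1 library. Of 45 correlations 29 passed, against 40 on log2(TPM + 1), 34 on nuclear TPM and 30 without the 2 farthest libraries. The fits on FPKM and nuclear TPM, the fit without 3 libraries and the tests of ratios were chosen after seeing the data.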
